A study of Mus musculus with 10 samples.

Results

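Cytosolic ribosomal protein genes were examined in lactating mammary glands of 2 inbred mouse strains. Members were all probe sets whose platform annotation gave exactly 1 symbol, either of the form Rpl or Rps followed by a digit or one of Rpsa, Rplp0, Rplp1 and Rplp2, with S6 kinases, pseudogenes and symbols ending in l1 left out. This rule took 97 probe sets of 46 genes, out of 20380 probe sets of 12393 genes with 1 symbol. A further 102 probe sets carried a ribosomal protein symbol together with others, and no gene was named from them.

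The mice were 5 QSi5 females, an inbred line bred for large and closely spaced litters, and 5 CBA/CaH females, a standard inbred strain. All were in their first lactation, at lactation day 9. One Affymetrix array was run per mouse on RNA from a piece of unsorted inguinal gland tissue. In each strain, 3 mice were on the MOE430 2.0 chip (QSi5 mice 3, 4 and 5 and CBA mice 1, 4 and 5) and 2 on the MOE430A 2.0 chip (QSi5 mice 1 and 2 and CBA mice 2 and 3). Mouse numbers are those of the sample records, and the sources used here give no pairing of mice across strains. In RNA of unsorted gland tissue, fewer cells of a type and less RNA per cell cannot be told apart.

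The cytosolic ribosome has a small subunit, which holds the mRNA and decodes it, and a large subunit, which joins the amino acids, each built from ribosomal RNA and proteins that are needed in nearly equal amounts. Messages of these proteins are abundant in most cells. In mammals they start with a stretch of pyrimidines, C or T in the DNA, called the 5′ TOP motif, through which mTOR signalling and the RNA-binding protein Larp1 control their translation. A lactating alveolar cell makes large amounts of a few milk proteins, and its ribosomes are mostly bound to the endoplasmic reticulum.

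Start-site sequences are shown for the 3 probe sets that differed between the strains, for Rpl13a, whose 4 probe sets lay to one side, and for the 2 stalk genes measured. Each line gives 30 bases, 15 on either side of an annotated RefSeq start on GRCm38.p6, in the sense direction, with the longest run of C and T in capitals. The windows were chr9:120571502-120571531 for Rpl14, chr9:120127751-120127780 for Rpsa, chr17:28328456-28328485 for Rpl10a and chr5:115559452-115559481 for Rplp0, all on the plus strand. Those of Rpl13a, chr7:45128731-45128760 on the minus strand, and Rplp2, chr7:141447636-141447665 on the plus strand, were read in the same way.
Rpl14: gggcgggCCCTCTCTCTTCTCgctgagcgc
Rpsa: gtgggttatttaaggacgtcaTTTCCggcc
Rpl10a: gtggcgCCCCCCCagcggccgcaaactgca
Rpl13a: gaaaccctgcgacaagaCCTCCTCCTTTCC
Rplp0: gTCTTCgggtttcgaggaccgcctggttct
Rplp2: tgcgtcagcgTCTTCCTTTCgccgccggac

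The longest pyrimidine run was 14 bases in Rpl14, at least 13 in Rpl13a and 10 in Rplp2, whereas it was 5 in Rpsa and in Rplp0. The run in Rpl13a was cut by the end of the window. Runs in Rpl13a and Rpsa lay wholly after the annotated start, and that in Rplp0 before it. In Rpl10a the run of 7 lay before the annotated start, and the window of another annotated start of that gene held no run over 4. Start windows were used for 40 of the 46 genes, with 48 starts in all. A run of at least 7 pyrimidines occurred in 23 of these 48 windows (47.9%), against 18.6% of 32851 windows of all genes. The letters CTTTC, on the sense strand, were in 11 of the 48 (22.9%), against 4.05% of all. In the longer region from 250 bases before to 50 bases after the start, CTTCCG or its reverse complement CGGAAG, the core recognised by Ets family factors, was in 30 of the 48 (62.5%), against 16.9% of all. These matches describe the letters near annotated starts, and a start annotated a few bases off would move the window.

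Values are log2 intensities, and probe sets were tested if either strain mean was above an unlogged intensity of 20 (log2 4.32). Of the 97 probe sets, 75 passed, covering 40 genes, and 22 did not. The median correlation between arrays, taken across tested probe sets, which are not independent, was 0.967 within strains. Casein and whey protein messages were high in all mice: the summed level of 8 markers of secretory epithelium was 16.2 to 16.3 in log2 units for QSi5 mice and 16.1 to 16.2 for CBA mice. Of these 8, 1 passed and 7 did not, with 5 differences above 0 and a median of 0.0053. The luminal keratin Krt8 was lower in QSi5 mice, at -0.83 (limma, adjusted p = 0.0161). The milk protein Lalba was at 0.40 with no overlap between the strains (0.0845) and the luminal keratin Krt18 at 0.08 (0.929). QSi5 mouse 4 stood apart in leukocyte markers. The summed level of 8 such genes was 10.1 in that mouse and 8.07 to 8.34 in the other QSi5 mice, against 8.03 to 8.72 in CBA mice, and 6 of the 8 lay above their own means in QSi5 mouse 4. Ms4a1, a B lymphocyte marker, was at 6.39 in QSi5 mouse 4, between 3.07 and 3.46 in the other QSi5 mice and between 2.96 and 3.37 in CBA mice. The same mouse had the lowest summed level of 6 myoepithelial markers, at 10.4, beside 11.1 to 11.7 in the other QSi5 mice and 10.8 to 11.8 in CBA mice. The summed level of 4 adipocyte markers was 9.30 to 9.96 in QSi5 mice, against 9.67 to 10.9 in CBA mice. It was lowest in QSi5 mouse 4 and highest in CBA mice 3 (10.9) and 2 (10.6). Fabp4, the brightest of the 4, was highest in CBA mice 3 (10.7) and 2 (10.3), and so was Cidec (4.58 and 4.39). Adipoq was highest in CBA mouse 4 (8.05), and Lep was highest in CBA mouse 2 (5.03) and lowest in CBA mouse 3 (3.97).

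The tested ribosomal protein probe sets were among the brightest on the arrays. Of the 75, 67 had a mean level above the 90th percentile of the mean levels of all tested probe sets and 60 were above 10 on the log2 scale. Mean levels over the 10 arrays ran between 4.41 and 13.1, with a median of 11.3. In 33 of the 46 genes at least 1 probe set was above 10. Probe sets of one gene differed widely in brightness, which belongs to the probes and does not order the genes. Of these genes, 9 had a probe set above 10 beside one that was not tested, as for Rpsa, whose second probe set, 1416196_at, averaged 3.05 in QSi5 mice. Rpl14 was represented by the single probe set 1422128_at, at a mean of 5.25. The dimmest tested probe set was 1448398_s_at of Rpl22 at 4.41 and the brightest one not tested was 1421837_at of Rps18 at 4.28.

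No probe set was tested for 6 genes, Rpl12, Rpl39l, Rpl3l, Rps25, Rps27 and Rps4l, each with a single probe set. As brightness belongs to the probes, this does not show that the messages of these genes were absent. Rpl3l is a paralogue known from striated muscle and Rpl39l one known from male germ cells. Rps27l, the paralogue of Rps27, had 3 tested probe sets, 1423254_x_at, 1450925_a_at and 1435429_x_at. They were at means of 10.5, 10.5 and 10.8 over the 10 arrays. Their differences between the strains were -0.02, -0.08 and -0.08, with adjusted p values of 0.78 to 0.98 (limma). Probe sets with the suffix _x_at can also bind similar transcripts of other genes.

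**Figure D1:**
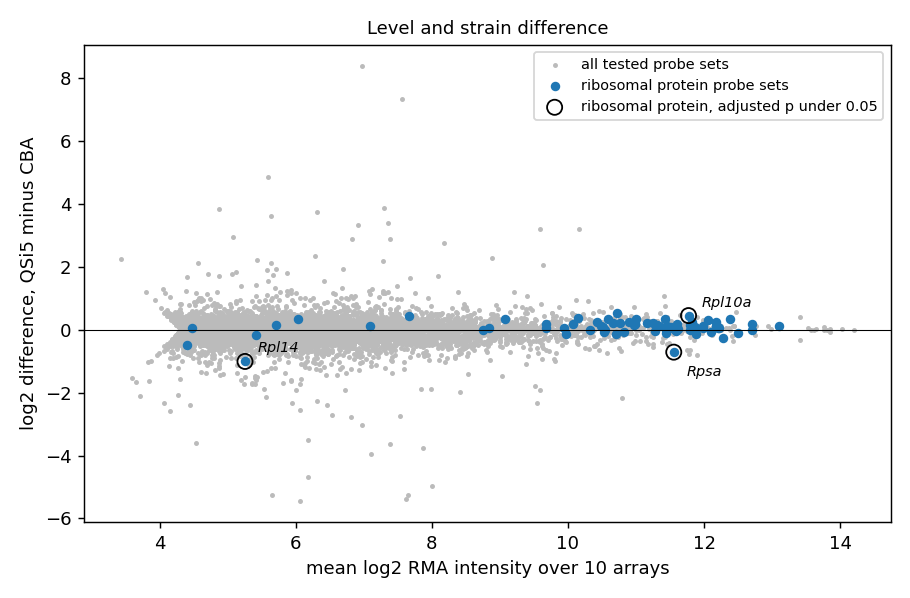
Strain difference (QSi5 minus CBA, log2, y axis) against mean log2 intensity over the 10 arrays (x axis) for all 11412 tested probe sets (grey) and the 75 of ribosomal proteins (blue), with circles around those at an adjusted p under 0.05. Most ribosomal protein probe sets lie at the bright end and close to 0, and Rpl14 lies among the dimmer ones.

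Differences between the strains were tested with limma over all 11412 tested probe sets and adjusted by the Benjamini-Hochberg (BH) method. Each difference is the QSi5 mean less the CBA mean in log2 units, with 5 mice per strain. Of the 75 ribosomal protein probe sets, 1 was higher in QSi5 mice (Rpl10a) and 2 were lower (Rpl14 and Rpsa) at an adjusted p under 0.05. Over all tested probe sets 1.44% were higher and 1.51% lower, so these counts stood near the background. At an unadjusted p under 0.05, 8 were higher and 4 lower, 12 of 75, while 15.1% of all tested probe sets passed. Differences beyond 0.5 in size occurred in 3 of the 75, against 7.54% of all. The strains did not overlap in 6 of the 75, 5 of them higher in QSi5 mice, against 5.14% of all.

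Differences were small but leaned to one side. They were above 0 in 54 of the 75 probe sets, against 50.2% of all tested, with a median of 0.09 against 0.0013. The median size of a difference regardless of sign was 0.12, against 0.14 for all. The median SD within strains was 0.18, against 0.22 for all. The median 95% confidence interval of a member's difference reached 0.26 to either side, so that the median shift was smaller than the precision of a single probe set. With each gene taken on its brightest probe set, 29 of 40 differences were above 0 with a median of 0.10. Without CBA mouse 2 the median over probe sets was 0.05, and without QSi5 mouse 4 it was 0.06.

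**Figure D2:**
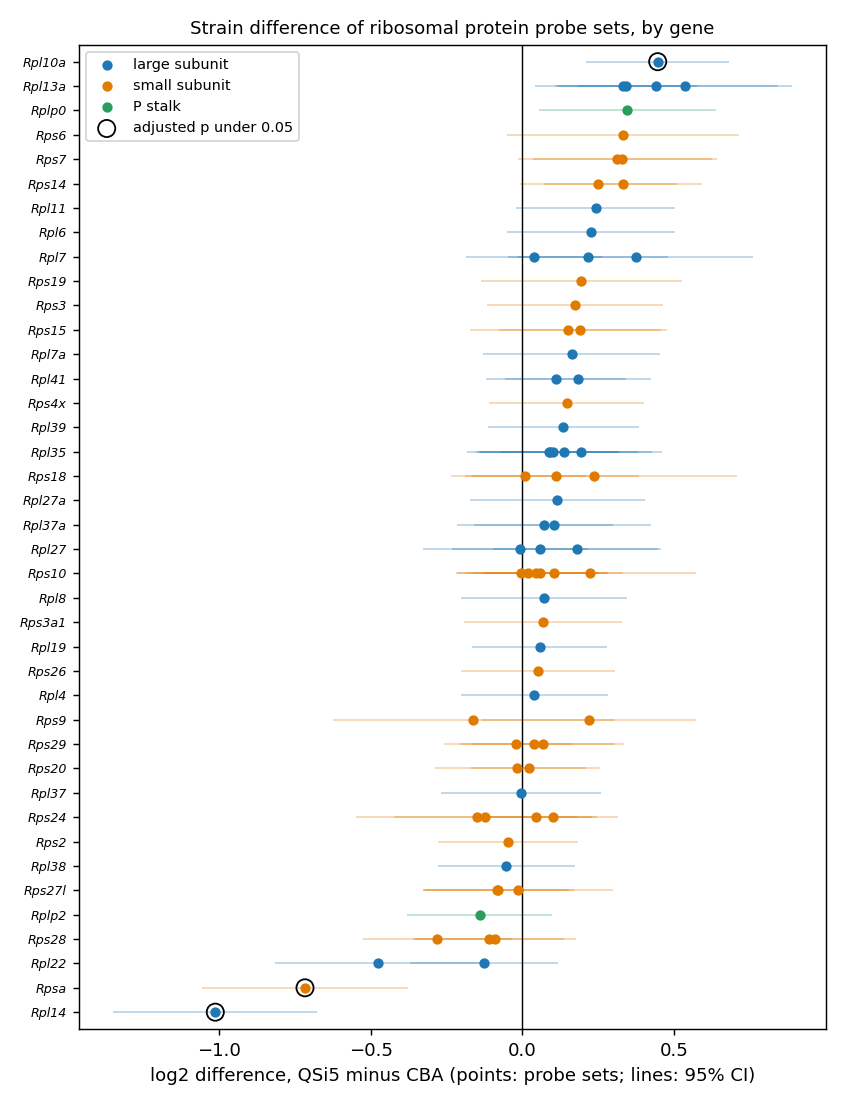
Log2 difference between QSi5 and CBA mice (x axis) for the 75 tested probe sets of 40 ribosomal protein genes (y axis, ordered by the mean difference of a gene), with 95% confidence intervals from limma and colours for the subunit. Circles mark the 3 probe sets at an adjusted p under 0.05, Rpl10a at the top and Rpsa and Rpl14 at the bottom.

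Rpl14, a protein of the large subunit, was read by 1422128_at at 4.47, 4.48, 5.01, 4.71 and 5.07 in QSi5 mice 1 to 5, against 5.58, 5.53, 5.83, 6.11 and 5.75 in CBA mice 1 to 5. All QSi5 mice lay below all CBA mice, and the values in QSi5 mice 1 and 2 were close to the intensity minimum. The means were 4.75 ± 0.28 in QSi5 mice and 5.76 ± 0.23 in CBA mice (SD, n = 5 each), a difference of -1.01 (SE 0.15, limma adjusted p = 0.00278), or 2.02-fold higher in CBA. It was -0.88 within the MOE430 2.0 arrays and -1.20 within the MOE430A 2.0 arrays. The call was kept in 21 of 23 alternatives and lost with either chip type alone, at adjusted p values of 0.0598 and 0.0905. Whether strain sequence variants lie under the probes of Rpl14, Rpsa or other members was not tested.

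Rpsa is a small subunit protein that also gives rise to a laminin-binding receptor at the cell surface. Its probe set 1448245_at read 10.93, 11.01, 11.17, 11.63 and 11.25 in QSi5 mice 1 to 5, against 11.82, 12.06, 12.23, 11.55 and 11.90 in CBA mice 1 to 5. The strains overlapped through QSi5 mouse 4 and CBA mouse 4. The means were 11.20 ± 0.27 in QSi5 mice and 11.91 ± 0.25 in CBA mice (SD, n = 5 each), a difference of -0.72 (SE 0.16, limma adjusted p = 0.0280), or 1.64-fold higher in CBA. It was -0.41 within MOE430 2.0 and -1.17 within MOE430A 2.0. The interaction of strain and chip type was -0.76 for this probe set, with an unadjusted p of 0.0112 in limma. After adjustment it did not pass (limma adjusted p = 0.886), and neither did any other tested probe set. The call was kept in 12 of 23 alternatives. It was lost without QSi5 mouse 1 (adjusted p = 0.0715), 2 (0.0676), 3 (0.0779) or 5 (0.0666) and without CBA mouse 2 (0.0764), 3 (0.0579) or 5 (0.0580).

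Rpl10a forms the movable L1 stalk of the large subunit, beside the site where spent tRNAs leave. Its probe set 1431177_a_at read 12.00, 11.83, 12.05, 12.20 and 11.90 in QSi5 mice 1 to 5, against 11.68, 11.51, 11.48, 11.71 and 11.36 in CBA mice 1 to 5. All QSi5 mice lay above all CBA mice. The means were 11.99 ± 0.14 in QSi5 mice and 11.55 ± 0.15 in CBA mice (SD, n = 5 each), a difference of 0.45 (SE 0.11, limma adjusted p = 0.0485), or 1.36-fold. The difference was 0.47 within the MOE430 2.0 arrays and 0.42 within the MOE430A 2.0 arrays. The adjusted p was next to the threshold, and the call was kept in 9 of 23 alternatives. Without QSi5 mouse 1, 3, 4 or 5 it was 0.0907, 0.132, 0.112 and 0.0833, and without CBA mouse 1, 2, 3 or 5 it was 0.0607, 0.110, 0.0886 and 0.108.

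Rpsa (chr9:120127766-120132369) and Rpl14 (chr9:120571517-120574653) lie 439 kb apart on GRCm38.p6. Within 1000 kb of Rpl14, 12 probe sets of 9 other genes were tested, and 1 passed, that of Rpsa. Around Rpsa 13 probe sets of 10 other genes were tested, and 1 passed, that of Rpl14. Of the genes between them, Eif1b alone was tested, and its difference of -0.08 did not pass (adjusted p = 0.804). Around Rpl10a (chr17:28328471-28331033), 31 probe sets of 19 other genes were tested and 0 passed in limma, with differences between -0.77 and 0.50. At an unadjusted p under 0.05 there were 4, all lower in QSi5 mice. Over all tested probe sets 1.44% were higher and 1.51% lower, and 15.1% had an unadjusted p under 0.05.

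**Figure D3:**
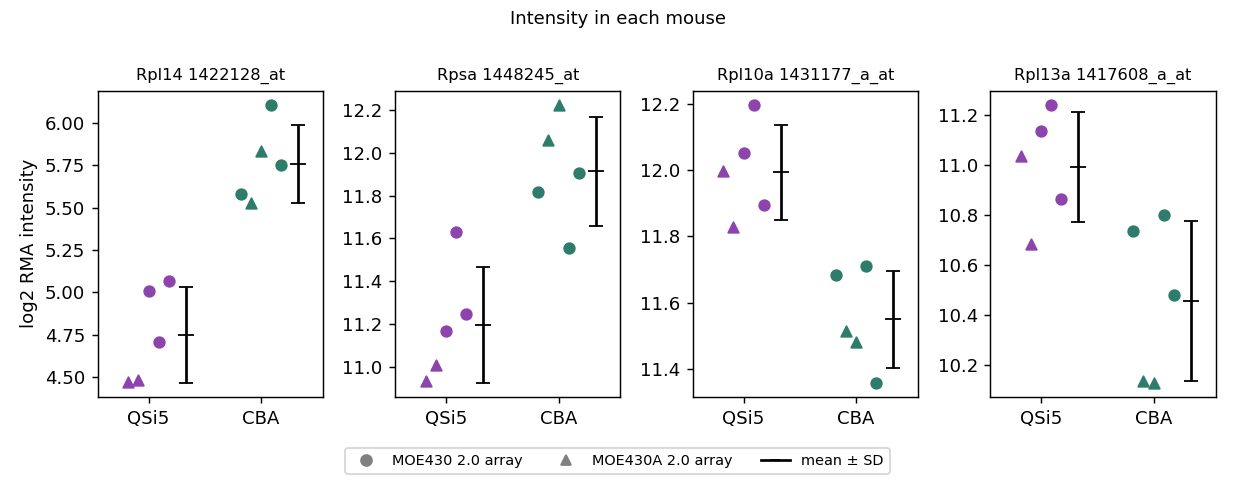
Log2 RMA intensity (y axis, a range of its own in each panel, not starting at 0) of 4 probe sets in QSi5 mice (left) and CBA mice (right), with circles for MOE430 2.0 arrays, triangles for MOE430A 2.0 arrays and bars for the mean ± SD (n = 5). QSi5 mice lie below CBA mice for Rpl14 and above them for Rpl10a, whereas values overlap for Rpsa and Rpl13a.

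Among large subunit genes, 27 of 33 probe sets of 19 genes had differences above 0, with a median of 0.11. Rpl13a, which in human cells can leave the ribosome to repress translation of inflammatory messages, had 4 tested probe sets with differences of 0.53, 0.44, 0.34 and 0.33. None passed, with limma adjusted p values of 0.120, 0.277, 0.134 and 0.117. The first, 1417608_a_at, read 11.04, 10.68, 11.13, 11.24 and 10.86 in QSi5 mice 1 to 5, against 10.74, 10.14, 10.13, 10.80 and 10.48 in CBA mice 1 to 5. It passed in 1 alternative, the fit that blocked on chip type (adjusted p = 0.0364). The strains did not overlap on 1455001_x_at, with 9.17 to 9.34 in QSi5 mice and 8.66 to 9.04 in CBA mice, nor on 1455485_x_at, with 11.50 to 11.80 in QSi5 mice and 11.03 to 11.46 in CBA mice.

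Rpl7, a large subunit protein, had 3 probe sets at 0.37, 0.22 and 0.04. The first, 1426162_a_at, read 10.20 to 10.58 in QSi5 mice, against 9.62 and 9.51 in CBA mice 2 and 3 and 9.92 to 10.39 in the other CBA mice. Rpl22, an RNA-binding protein that is dispensable for translation itself and needed for T lymphocyte development in mice, was at -0.13 on 1416603_at (adjusted p = 0.660). On its dim probe set 1448398_s_at the difference was -0.48 (adjusted p = 0.150), and this probe set was tested only through CBA mice, being below the intensity minimum in QSi5 mice. Rpl27 on 1448217_a_at was among the most variable within strains (SD 0.31), between 9.36 and 10.02 in QSi5 mice and between 9.26 and 10.21 in CBA mice.

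The P stalk of the large subunit recruits the translation factors that hydrolyse GTP. Rplp0, its base, was at 11.21, 11.10, 11.16, 11.33 and 11.08 in QSi5 mice 1 to 5, against 11.05, 10.51, 10.53, 11.06 and 11.00 in CBA mice 1 to 5. The strains did not overlap, but the difference of 0.35 did not pass (SE 0.13, limma adjusted p = 0.244), and CBA mice 2 and 3 were far below the other CBA mice. Within the MOE430 2.0 arrays it was 0.15, and within the MOE430A 2.0 arrays 0.63. Rplp2, one of the acidic proteins that attach to Rplp0, was at 11.64 to 12.00 in QSi5 mice and 11.78 to 12.23 in CBA mice, a difference of -0.14 (adjusted p = 0.610). Rplp1 had no probe set with 1 symbol.

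Among small subunit genes, 26 of 40 probe sets of 19 genes had differences above 0, with a median of 0.05. Rps14, a protein of the small subunit platform whose reduced dose underlies the anaemia of the human 5q- syndrome, had a difference of 0.33 on 1437706_x_at (adjusted p = 0.204). It read 12.45 to 12.63 in QSi5 mice, against 12.06 and 11.89 in CBA mice 2 and 3 and 12.33 to 12.44 in the other CBA mice, with no overlap. Rps28 was lower on all its 3 probe sets by value, at -0.28, -0.11 and -0.09, with adjusted p values from 0.258 to 0.791 that did not pass. Its probe set 1454778_x_at read 12.02 to 12.33 in QSi5 mice and 12.26 to 12.71 in CBA mice. Rps6, the substrate of the S6 kinases, read a difference of 0.33 (adjusted p = 0.414), and the 2 probe sets of Rps7 read 0.33 and 0.31 (0.268 and 0.357).

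Within-strain SDs ran between 0.07 and 0.39. The steadiest probe sets belonged to small subunit genes, 1436064_x_at of Rps24, 1438859_x_at of Rps29, 1456436_x_at of Rps20, 1455572_x_at of Rps18 and 1438723_a_at of Rps10. Rps29, a zinc-binding protein of the small subunit head, was between 12.59 and 12.75 in QSi5 mice and between 12.61 and 12.79 in CBA mice, a difference of -0.02 (95% confidence interval -0.21 to 0.16). For Rps20 the difference was 0.02 (-0.17 to 0.21) and for Rps10 -0.0034 (-0.22 to 0.21). Rps18 and Rps24 also had probe sets among the 5 most variable. On 1448739_x_at of Rps18, values were 11.60 to 12.12 in QSi5 mice and 11.08 to 12.32 in CBA mice (SD 0.39). On 1456628_x_at of Rps24 they were 10.17 to 11.03 in QSi5 mice and 10.45 to 11.20 in CBA mice (SD 0.32). On 1434624_x_at of Rps9, a dim probe set, they were 5.06 to 5.59 in QSi5 mice and 5.07 to 6.25 in CBA mice (SD 0.38).

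Of the 18 genes with several tested probe sets, 12 had differences of one sign and 6 of both. No gene had probe sets whose differences lay over 0.5 apart. Probe sets with the suffix _x_at, which can bind similar transcripts, numbered 36, with a median difference of 0.04 and 0 passing in limma (5 at an unadjusted p under 0.05). Over all tested probe sets 1.44% were higher and 1.51% lower, and 15.1% had an unadjusted p under 0.05, so these counts stood near the background. Those with the suffix _a_at, which read several transcripts of one gene, numbered 26, with a median of 0.14. The 102 probe sets with several symbols held 89 tested ones. Of these, 2 were lower and 0 higher in QSi5 mice, near the 1.51% lower and 1.44% higher over all tested probe sets. Ribosomal protein genes have many processed pseudogenes, and how much signal such copies add was not tested.

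The level of the whole group moved from mouse to mouse. Each probe set's deviation from its own mean over the 10 arrays had a median over the 75 of 0.10, -0.07, 0.05, 0.17 and -0.0007 in QSi5 mice 1 to 5. In CBA mice 1 to 5 it was -0.03, -0.13, -0.09, 0.05 and 0.04. QSi5 mouse 4 was the highest of all 10 mice in 34 of the 75 probe sets (45.3%), against 10.2% of all tested probe sets, and CBA mice 2 and 3 both lay below every other mouse in 25 (33.3%), against 7.57%. Medians of CBA mice 1, 4 and 5 lay within the range of the QSi5 mice.

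Those 25 probe sets included all 3 of Rpl7, both of Rps7, both tested ones of Rps14 and of Rpl41, and those of Rplp0, Rpl7a, Rps3, Rps6 and Rps3a1. The same CBA mice both lay above every other mouse in 5 of the 75 (6.67%), against 7.31% of all tested probe sets. These were probe sets of Rpsa, Rpl22 (1448398_s_at), Rps9 (1434624_x_at) and 2 of Rps24. CBA mice 2 and 3 were thus not low for every member. The QSi5 mice on the MOE430A 2.0 chip, 1 and 2, both lay below every other mouse in 3 of the 75 (4%), against 2.02% of all. CBA mice 2 and 3 also had the highest summed levels of adipocyte markers, a sum in which Fabp4 weighs most, whereas Adipoq was highest in CBA mouse 4. QSi5 mouse 4 had the highest summed level of leukocyte markers and the lowest of adipocyte and myoepithelial markers. The part of these markers in the ribosomal protein values was not tested.

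With both CBA mice 2 and 3 left out, 48 of 75 differences were above 0, the median was 0.03, and 1 probe set passed, that of Rpl14. Without QSi5 mouse 4 the 2 lower calls were kept and that of Rpl10a was lost. Within the MOE430 2.0 arrays the median difference was 0.07 and within the MOE430A 2.0 arrays 0.13, with the same sign on both in 56 of the 75 probe sets. An interaction of strain and chip type passed in 0 of the 75 and in 0% of all tested probe sets (limma, adjusted p under 0.05), and 7 of the 75 had an unadjusted p under 0.05, as did 620 of all 11412.

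**Figure D4:**
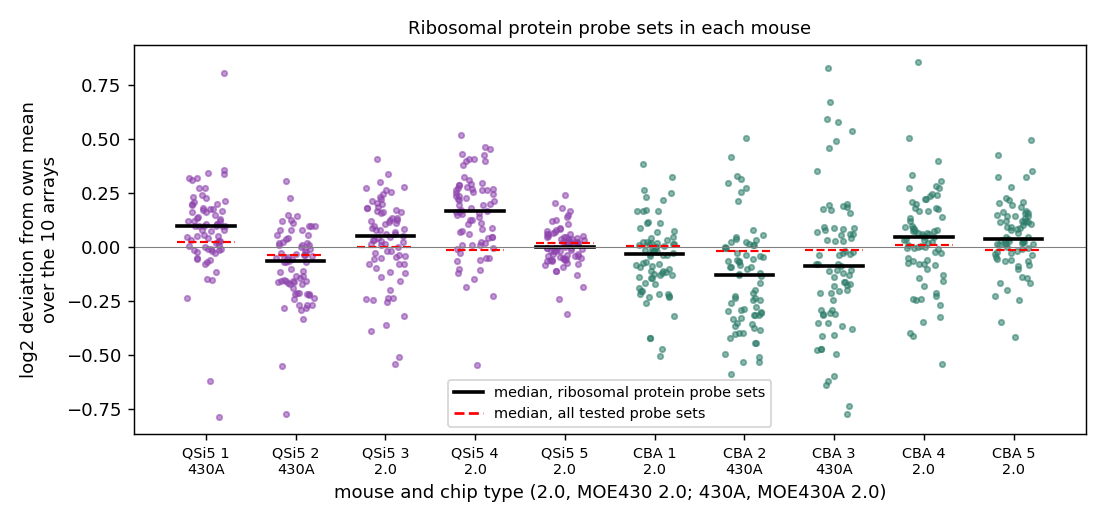
Deviation of each of the 75 tested ribosomal protein probe sets from its own mean over the 10 arrays (log2, y axis) in each mouse (x axis, QSi5 left, CBA right, with the chip type), with black bars for their median and dashed red bars for the median of all tested probe sets. QSi5 mouse 4 has the highest median (0.17) and CBA mouse 2 the lowest (-0.13).

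Genes that work with the ribosome were taken from general lists, each gene on its brightest probe set. The mitochondrial ribosome translates the few messages of the mitochondrial genome. Of 74 tested genes of its proteins, 1 was higher in QSi5 mice and 0 lower, beside 1.44% and 1.51% of all tested probe sets. The median difference was 0.03, with 41 of the 74 above 0, against 50.2% of all. The gene that passed was Mrpl39. It read 9.57 to 9.90 in QSi5 mice and 8.89 to 9.30 in CBA mice, a difference of 0.70 (SE 0.11, limma adjusted p = 0.00278). It was 0.69 within MOE430 2.0 and 0.71 within MOE430A 2.0. Fitted on the MOE430A 2.0 arrays alone, 0 of the list passed (limma, 4 at an unadjusted p under 0.05). The share of all probe sets at that unadjusted threshold is not given here for this fit.

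Ribosome biogenesis factors transcribe and process ribosomal RNA and assemble the subunits in the nucleolus. Of 37 tested, 0 passed in limma in either direction. At an unadjusted p under 0.05 there were 9, all with differences below 0, against 15.1% of all tested probe sets in either direction. Differences were above 0 in 7 of the 37, against 50.2% of all, with a median of -0.23 against 0.0013. Gnl3, the nucleolar GTPase nucleostemin, read 5.46 to 6.58 in QSi5 mice and 6.15 to 6.98 in CBA mice, a difference of -0.71 (adjusted p = 0.0937). Tsr1, which acts in the maturation of the small subunit, was at 3.91 to 4.90 in QSi5 mice and 4.69 to 5.17 in CBA mice, a difference of -0.70 (adjusted p = 0.0641). Ncl, the nucleolar protein nucleolin, was at -0.45 (adjusted p = 0.209). The 7 above 0 included the RNA polymerase I genes Polr1d at 0.39 (limma adjusted p = 0.353), Polr1c at 0.20 (0.717) and Polr1a at 0.16 (0.548). Median deviations over the 45 genes of the list on the arrays ran between -0.36 and 0.04 in QSi5 mice and between -0.08 and 0.23 in CBA mice. CBA mouse 3, among the lowest for ribosomal proteins, was the highest here. Up to 2 of these genes passed in an alternative, with array weights or without QSi5 mouse 1.

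Of 17 translation factors and other genes with 5′ TOP messages, 0 passed in limma (3 at an unadjusted p under 0.05, against 15.1% of all). Differences were above 0 in 11 of the 17, against 50.2% of all tested probe sets, with a median of 0.06. Eef1a1, which brings aminoacyl-tRNA to the ribosome, was at 0.06 (adjusted p = 0.831) and Eef2, which moves the ribosome along the message, at 0.07 (0.823). Eif3e, a subunit of the initiation factor that binds the small subunit, read 8.10 to 8.40 in QSi5 mice and 8.48 to 8.77 in CBA mice with no overlap, a difference of -0.37 that did not pass (adjusted p = 0.0916). Of 9 tested regulators 0 passed (1 at an unadjusted p under 0.05), among them Larp1 at 0.05 (0.859), Mtor at 0.24 (0.471), Myc at -0.24 (0.408) and Eif4ebp1, the translation repressor that mTOR inactivates, at -0.43 (0.140). Of the other cytosolic components, Fau, made as a fusion of a ubiquitin-like protein with a small subunit protein, was at -0.0023 (0.995), Rpl22l1 at 0.08 (0.850) and Rpl7l1 at -0.21 (0.595).

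**Figure D5:**
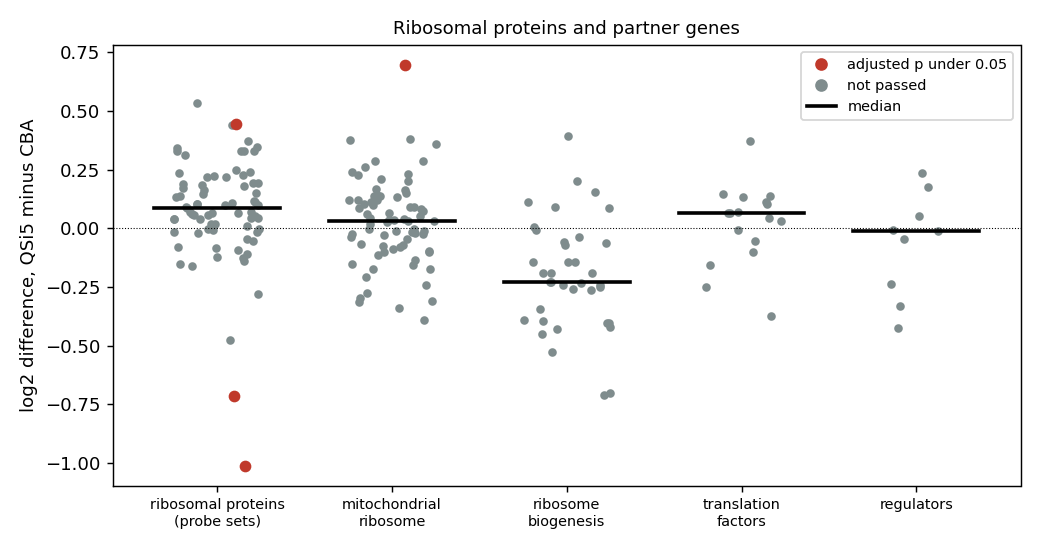
Log2 difference between QSi5 and CBA mice (y axis) for the 75 tested ribosomal protein probe sets and, at 1 probe set a gene, for 4 partner lists (x axis), with red points at an adjusted p under 0.05 and black bars for medians. The biogenesis factors have the lowest median (-0.23, against 0.0013 over all tested probe sets), with 0 past the threshold.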

How the data were processed

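RNA from unsorted inguinal gland tissue of 10 mice, 5 per strain, was hybridised to 1 Affymetrix array each. The deposited values are log2 intensities that the authors computed by RMA in the affy package (versions not given in the sources used here), which corrects background, equalises the distribution of all arrays by quantiles and summarises the probes of a set. Per the labels, both chip types were normalized together on their 22690 shared probe sets. As all arrays share one distribution, a change in total RNA per cell is not visible. The number of arrays limits the precision. The methods name one chip for all mice, whereas the labels give both.

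After 64 control probe sets were left out, those with a mean above 20 unlogged in at least 1 strain were kept. Strain was fitted by lmFit and eBayes of limma (version 3.58.1, under R 4.3.3), with two-sided p values adjusted by Benjamini-Hochberg over all 11412. The fit was tested on simulated data. Probe sets named are those called, the 8 largest positive and 8 largest negative differences, the 5 largest and 5 smallest SDs within strains, the stalk genes, Rpsa and paralogues. Other names, among them Rps6, Rps7, Krt8, Ms4a1 and the partner genes, were chosen after their values were seen. The members and lists were chosen with earlier results of these data known. Start windows and gene positions came from RefSeq (GRCm38.p6), and Rpl7, Rpl8, Rps14, Rps20, Rps29 and Rps4l had none used here. Member windows on chromosome 18, where Rps14 lies, were left out, whereas the windows of all genes kept that chromosome. Columns of other series numbered 0. Alternatives changed the intensity minimum, scaling, probe set classes, the fit, the chip type and the mice included.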

Additional observations from a re-analysis of the deposited data

Results flagged for a closer look

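In 2 of 52 sets of 5 mice examined for the named probe sets, 1 mouse lay far from the others by Dixon's test (critical value 0.71). Chance alone gives about 1 in 20 such sets. For Rpl22 on 1416603_at, QSi5 mouse 2 read 9.70 on the log2 scale, beside 9.94 to 10.02 in the other QSi5 mice. For Rps24 on 1436064_x_at, the steadiest ribosomal protein probe set, CBA mouse 3 read 12.1, beside 12.22 to 12.25 in the other CBA mice.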

How the results depend on the processing

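Among the 75 ribosomal protein probe sets, 3 passed. In limma the count was 0 on the MOE430 2.0 arrays alone (7 at an unadjusted p under 0.05), 0 on the MOE430A 2.0 arrays alone (10 at an unadjusted p under 0.05), 1 with a replicate block and, in an alternative chosen after seeing the data, 1 with CBA mice 2 and 3 both left out. With single mice left out it was 1 to 3. The share of all probe sets at an unadjusted p under 0.05 is not given here for the single-chip fits. The counts of 7 and 10 thus have no background beside them. Over all probe sets 336 passed, against 146 on the MOE430 2.0 arrays alone, 65 on the MOE430A 2.0 arrays alone, 205 without CBA mice 2 and 3 and 215 to 415 with single mice left out. Fewer arrays enter each of these fits. The median difference of the ribosomal protein probe sets stayed above 0 in all alternatives, between 0.03 and 0.13. Correlations of same-numbered deviations ran from -0.37 to 0.29, and mice 2 alone correlated best with their own number. Same-numbered mice were on the same chip type for numbers 2, 4 and 5 and on different types for 1 and 3. These correlations cannot show whether mice were paired. With the replicate block, 260 of all probe sets passed.

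Of 26 named probe sets, 17 kept their sign in every alternative. The other 9, none of which passed, changed sign in 33 of their 199 refits, and the cause was not tested. Rps29 (1438859_x_at) became 0.034 with a second quantile normalization, and Rps18 (1455572_x_at) -0.0024 with median centring and -0.059 on the MOE430A 2.0 arrays. On the MOE430 2.0 arrays, Rps9 (1434624_x_at) was 0.0080, Rps18 (1448739_x_at) -0.015, Rps20 (1456436_x_at) -0.020 and Rps10 (1438723_a_at) 0.025. On the MOE430A 2.0 arrays, Rpl27 (1448217_a_at) was -0.049 and Rps27l (1423254_x_at) 0.15. With array weights, Rps20 was -0.016 and Rps27l 0.021. Without CBA mice 2 and 3, Rps9 was 0.17, Rps24 (1456628_x_at) 0.071, Rps18 (1448739_x_at) -0.11 and Rps10 0.038. With single mice left out, Rps9 ran between -0.27 and 0.026, Rpl27 between -0.039 and 0.20, Rps29 between -0.047 and 0.0052, Rps20 between -0.0038 and 0.057, Rps18 (1455572_x_at) between -0.017 and 0.059, Rps10 between -0.044 and 0.043 and Rps27l between -0.11 and 0.083. Chip type as a block added Rpl13a (1417608_a_at) to the calls.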
